A study of Mus musculus with 2 samples.

Results

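The mouse genes whose symbols start with Tbc number 38 among the 21521 protein-coding genes that RefSeq places on the autosomes and X of GRCm38.p6, the assembly behind mm10. They were examined in a Hi-C map of HPC5, a haematopoietic progenitor cell line derived from mouse bone marrow, with the genotype Etv6+/+. Hi-C counts ligation products between stretches of DNA that lie close together in the nucleus. There were 2 replicates of this 1 group, each of cells fixed with 2% formaldehyde for 10 min, and no mutant or treated sample was among them. Whether they were separate cultures is not stated, and differences between replicates may therefore be technical. No expression was measured, so the cell type could not be checked against marker genes. The members were taken by symbol alone, but the family itself was chosen on how often its gene ends lay in loop anchors of these same lists. That share is therefore given as a description, with no test.

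The symbol stem joins unrelated kinds of gene. The 30 Tbc1d genes and Tbck carry the TBC domain, named after Tre-2, Bub2 and Cdc16. Most proteins with this domain are GTPase-activating proteins for Rab GTPases, the small switches that mark membrane compartments: a Rab is active with GTP bound and recruits tethers and motors, and the activating protein speeds GTP hydrolysis and turns it off. The other 7 are tubulin-binding cofactors and relatives. Tbca, Tbcb, Tbcc, Tbcd and Tbce encode cofactors A to E, chaperones that fold and join alpha- and beta-tubulin after the chaperonin has released them. Tbcel encodes a relative of cofactor E, and Tbccd1 a protein with a domain related to cofactor C.

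The authors listed loops for each replicate, each loop a pair of anchors of 5, 10 or 25 kb, under a high and a medium setting. The medium list held 1276 loops in replicate 1 and 5729 in replicate 2, and the high list 202 and 3354. The high counts equal those of the medium loops on 5 and 10 kb anchors: 0 and 202 in replicate 1, 986 and 2368 in replicate 2. Every loop at a Tbc gene end on 5 or 10 kb anchors was in a high list, and none on 25 kb anchors was. A place in a high list thus followed anchor width and is no separate support for a loop. The domain lists held 3 and 339. The lists state no read totals, so the depth is unknown, and the lower counts of replicate 1 bear on every comparison between replicates below. A gene was placed at an anchor when its left or right end, by chromosome position, lay inside it. A loop was shared when the other replicate listed a loop whose anchor midpoints differed from its own by at most 20 kb on each side. Span is the distance between anchor midpoints. Unless another setting is named, values are those of the medium lists. The whole number tagged n in each loop record is not defined in the files and was used only to rank loops of the same anchor width within 1 replicate.

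Annotated starts, which RefSeq gives with their strand for 30 of the 38 genes, showed which end of a gene is its promoter. The sequences that follow are the 250 bases before starts that lay in an anchor, on the strand of transcription. They are shown for the gene with 2 own starts joined by a loop (Tbc1d14), the gene whose start lay at a domain edge (Tbc1d23), the genes placed most narrowly, on 5 kb anchors (Tbc1d9 and Tbc1d15), and the 1 gene whose anchored start held the core letters of ETS factor sites (Tbc1d22a). Capitals mark CpG dinucleotides.
Tbc1d14 upstream start, chr5:36582398-36582647, minus strand: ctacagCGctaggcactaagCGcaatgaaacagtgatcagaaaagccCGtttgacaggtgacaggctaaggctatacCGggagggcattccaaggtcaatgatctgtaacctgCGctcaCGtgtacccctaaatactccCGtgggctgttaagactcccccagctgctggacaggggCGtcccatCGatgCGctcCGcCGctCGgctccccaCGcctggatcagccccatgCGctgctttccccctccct
Tbc1d14 internal start, chr5:36530624-36530873, minus strand: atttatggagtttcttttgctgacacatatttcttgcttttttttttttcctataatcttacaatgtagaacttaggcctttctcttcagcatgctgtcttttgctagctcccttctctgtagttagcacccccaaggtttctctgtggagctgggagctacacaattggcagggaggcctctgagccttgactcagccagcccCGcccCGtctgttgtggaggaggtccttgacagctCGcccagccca
Tbc1d23, chr16:57231467-57231716, minus strand: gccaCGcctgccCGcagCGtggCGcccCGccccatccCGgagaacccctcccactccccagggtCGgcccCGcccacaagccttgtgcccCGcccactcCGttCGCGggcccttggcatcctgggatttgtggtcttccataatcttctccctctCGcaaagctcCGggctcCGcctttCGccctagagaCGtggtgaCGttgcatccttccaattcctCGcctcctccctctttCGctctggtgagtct
Tbc1d9, chr8:83165102-83165351, plus strand: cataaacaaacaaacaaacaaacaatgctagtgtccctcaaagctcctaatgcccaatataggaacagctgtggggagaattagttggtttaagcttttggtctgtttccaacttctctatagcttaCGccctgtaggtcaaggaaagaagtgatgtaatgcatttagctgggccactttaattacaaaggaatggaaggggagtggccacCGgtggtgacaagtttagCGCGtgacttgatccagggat
Tbc1d15, chr10:115251494-115251743, minus strand: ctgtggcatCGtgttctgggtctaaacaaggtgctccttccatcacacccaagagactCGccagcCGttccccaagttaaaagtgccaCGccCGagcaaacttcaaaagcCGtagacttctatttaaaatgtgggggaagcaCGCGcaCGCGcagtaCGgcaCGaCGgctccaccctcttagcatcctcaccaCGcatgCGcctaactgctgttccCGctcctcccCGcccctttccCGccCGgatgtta
Tbc1d22a, chr15:86214209-86214458, plus strand: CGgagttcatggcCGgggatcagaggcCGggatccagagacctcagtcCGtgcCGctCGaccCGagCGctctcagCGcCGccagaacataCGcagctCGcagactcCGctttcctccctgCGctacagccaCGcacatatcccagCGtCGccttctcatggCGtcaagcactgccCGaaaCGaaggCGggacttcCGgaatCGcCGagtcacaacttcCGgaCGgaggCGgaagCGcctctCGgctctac

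Of the 38 Tbc genes 15 had an end in a loop anchor of either replicate, or 39.5%, where 22.5% of all protein-coding genes had one. In replicate 1 there were 5 such members (13.2%, against 6.67% of all genes) and in replicate 2 there were 14 (36.8%, against 19.8%). At shared loops stood 2 members, Tbccd1 and Tbc1d23, which is 5.26% against 5.83% of all genes. The order of these shares turned with the distance allowed: with midpoints within 25 kb, the width of the widest anchors, Tbc1d8 and Tbc1d14 were added and the share was 10.5%, against 6.52% of all genes. A wider group, Tbc1d14, Tbc1d2b, Tbccd1 and Tbc1d23, had an end in some anchor of each replicate (10.5%, against 3.96%). For Tbc1d14, Tbc1d2b and Tbccd1, however, the loops whose anchors held a gene end led to different places in each. Under the high setting 9 members were at an anchor (23.7%, against 9.53%), namely Tbc1d7, Tbc1d9, Tbc1d10a, Tbc1d14, Tbc1d15, Tbc1d22a, Tbc1d24, Tbc1d2b and Tbccd1, through the 10 member loops on 5 and 10 kb anchors, all of replicate 2.

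By kind, 14 of the 30 Tbc1d genes had an end in an anchor (46.7%, against 23.5% of other genes of like density). Of the 7 tubulin cofactor genes and relatives 1 did (14.3%, against 23.0%), a count too small to place the share. Tbck, which encodes a TBC-domain protein with a kinase-like domain, did not. Whether the kinds differ was not tested.

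**Figure D1:**
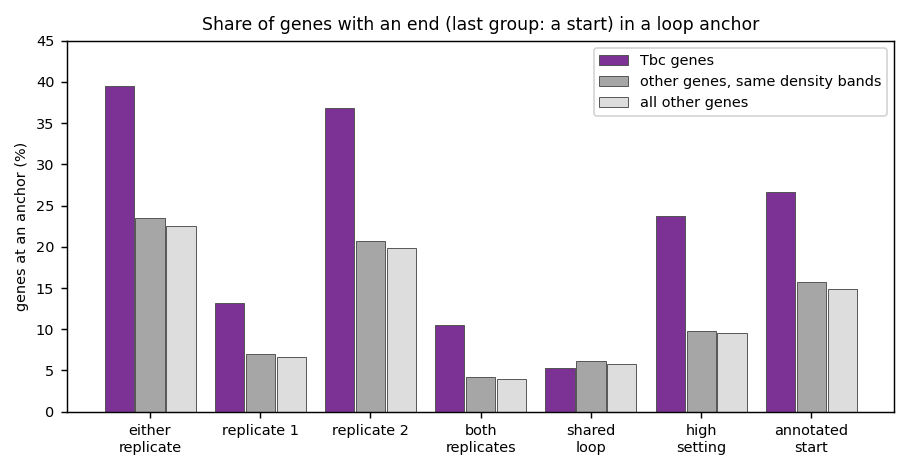
Share of genes (%) with an end in a loop anchor, for the 38 Tbc genes, other genes in the same bands of gene density, and all other genes; the last group counts annotated starts. Tbc genes stand above both backgrounds except at shared loops (midpoints within 20 kb), with 5.26% of Tbc genes and 6.09% of density-matched genes. No error bars are drawn. The Tbc bars rest on 38 genes, or 30 for annotated starts, and the density-matched bars are averages of band shares over those members.

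Tbc genes lie in somewhat emptier stretches than other genes and are longer. They had a median of 11.5 other protein-coding genes within 500 kb and a median length of 57.8 kb, where other genes had 15 neighbours and 17.3 kb. Both bear on the chance of touching an anchor, so the share was set against other genes in the same band of gene density, with 10 bands in all. Those genes had an end in an anchor in 23.5% of cases, which gives Tbc genes a ratio of 1.68 (15 members at an anchor, where the matched share would give 8.9). The ratio was 1.88 in replicate 1, 1.78 in replicate 2 and 2.43 under the high setting, which leaves out the 25 kb anchors. At shared loops it was 0.864, or 1.55 with midpoints within 25 kb. Matched on density and length together it was 1.57, and on length alone, a match added after seeing the data, 1.48.

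By density, 8 of the 16 members with at most 9 neighbours had an end in an anchor (50%, against 26.3% of other genes there). Of the 11 with 10 to 15 neighbours 4 did (36.4%, against 25.5%), and of the 11 with 16 or more 3 did (27.3%, against 18.9%). The share was above that of other genes in each of these 3 groups, on a few genes apiece. The family was chosen on this share, so the split describes it and is no further support.

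Tbc1d23 had a start in an anchor of both replicates and at a domain edge. Its protein, by work in human cells, sits at the trans-Golgi and helps capture vesicles arriving from endosomes. The gene occupies chr16:57168862-57231528 and is transcribed leftward from 57231466. In replicate 1 the 25 kb anchor 57225001 to 57249999, which held this start, was joined over 350 kb to 57575001 to 57599999, with an n of 37 (rank 287 of 1074 loops of that width). In replicate 2 the same anchor was joined over 325 kb to the neighbouring bin, 57550001 to 57574999, with an n of 126 (rank 61 of 2375). Neither loop was in a high list, as for all loops at Tbc gene ends on 25 kb anchors. That second anchor held an end of Filip1l, a filamin A interacting protein gene. These loops were a bin apart and so counted as separate at 20 kb. The replicate 2 loop that did match spanned 360 kb on 10 kb anchors, from 57240001 to 57249999, which did not hold the start, to 57600001 to 57609999, which held an end of Cmss1. The loops at the start thus led to neighbouring bins 350 kb (replicate 1) and 325 kb (replicate 2) to its right, in the direction away from the gene body.

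The domain list of replicate 2 drew the same stretch. A domain of 375 kb ran from 57230001 to 57605000, its left edge 1.47 kb inside the start of Tbc1d23, so that nearly the whole gene lay outside. Tmem30c and Filip1l lay within it and Cmss1 crossed an edge. Of all 38 genes Tbc1d23 was the nearest to a domain edge, at 1.5 kb, and the next, Tbc1d1, lay 28.5 kb from one. Replicate 1, with 3 domains, listed none there.

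**Figure D2:**
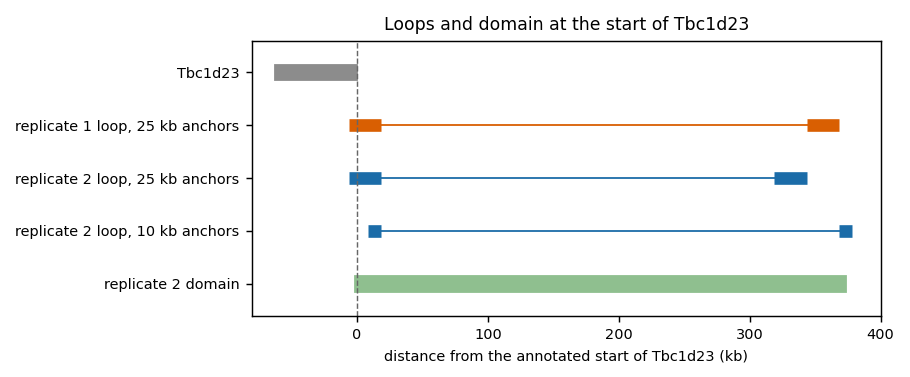
Loops and the domain at Tbc1d23, drawn to scale along the chromosome from the annotated start (dashed line, distance in kb); thick bars are anchors. The gene body lies left of the start and all 3 loops and the 375 kb domain extend to the right, with the 25 kb anchors of both replicates over the start.

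Tbccd1, the only anchored member outside the Tbc1d genes, had a loop at each end. In human cells its protein is known to position the Golgi and the centrosome. The gene occupies chr16:22813214-22857695. In replicate 1 its left end lay in 22800001 to 22824999, an anchor it shared with Crygs, a lens crystallin gene, joined over 250 kb to 22550001 to 22574999, where no protein-coding gene ends. Replicate 2 held the matching loop of 240 kb, whose 10 kb anchor at 22800001 to 22809999 reached Crygs but stopped short of Tbccd1. In replicate 2 the right end lay in 22850001 to 22859999, together with an end of Dnajb11, an endoplasmic reticulum chaperone gene. From there a loop of 270 kb ran to 23120001 to 23129999, at the start of Rfc4, which encodes a subunit of the clamp loader replication factor C. This loop ranked 2329 of 2368 by n and had no partner in replicate 1. No start with strand was available for Tbccd1, so neither end is named as its promoter.

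Tbc1d14 had an anchored start in both replicates with a different loop in each. Its protein binds recycling endosomes and restrains autophagy. The gene occupies chr5:36490604-36586271 and has annotated starts at 36582397 and, inside the gene, at 36530623. In replicate 2 the anchor 36580001 to 36589999 was joined over 50 kb to 36530001 to 36539999, so that the 2 anchors held its 2 starts, with an n of 35 (rank 661 of 2368). The upstream promoter printed above had 15 CpG dinucleotides in 250 bases (59.2% G or C) and the internal one 3 (48.8%), with a ratio of observed to expected CpG of 0.7 and 0.204. Loops between 2 annotated starts of 1 gene were rare: of 416 genes with starts at least 35 kb apart, the shortest span in these lists, 8 had one (1.92%), and of the 3 such Tbc genes Tbc1d14 alone did.

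In replicate 1 the start of Tbc1d14, in 36575001 to 36599999, was instead joined outward over 150 kb to 36725001 to 36749999, at the start of Bloc1s4, which encodes a subunit of the BLOC-1 complex of endosomal sorting. Replicate 2 listed a loop of 125 kb to that same bin, with an n of 106, but from the next bin, 36600001 to 36624999, where Tbc1d14 does not end. A further replicate 2 loop of 280 kb reached over the whole gene, from 36460001 to 36469999 at an end of Grpel1 to 36740001 to 36749999 at an end of Bloc1s4.

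Tbc1d2b, related to Tbc1d2, the gene of a GTPase-activating protein for Rab7, was the fourth member anchored in both replicates. Its left end, the end of the gene at 90202047 on chromosome 9, shared an anchor with Adamts7, a secreted metalloproteinase gene, in each. The loop of replicate 1 spanned 200 kb, from 90200001 to 90224999 across the gene to 90400001 to 90424999. That of replicate 2 spanned 240 kb, from 90200001 to 90209999 to 90440001 to 90449999. The left anchors overlapped and the right ones did not. The midpoints of the right anchors lay more than 20 kb apart, so the loops were not counted as shared. No protein-coding gene ended at either right anchor.

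Tbc1d8 was anchored in replicate 1 alone. Its left end at 39371495 on chromosome 1 lay in 39350001 to 39374999, with ends of Rpl31, a ribosomal protein gene, and Npas2, a circadian transcription factor gene, joined over 350 kb to 39000001 to 39024999. In replicate 2 a loop of 325 kb left the same far bin and ended at 39325001 to 39349999, a bin short of the gene. A shared loop enclosed Tbc1d8 whole, over 500 kb in replicate 1 and 520 kb in replicate 2, from 39000001 to 39024999 and 39000001 to 39009999.

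The remaining 10 anchored members had loops in replicate 2 alone. In 6 of them an annotated start lay in the anchor, namely Tbc1d4, Tbc1d7, Tbc1d9, Tbc1d12, Tbc1d15 and Tbc1d22a. Tbc1d9, at chr8:83165352-83272940, had its start in the 5 kb anchor 83165001 to 83169999, joined over 65 kb to 83100001 to 83104999 upstream, with an n of 30 (rank 39 of 986). Tbc1d15, whose protein acts on Rab7 and binds mitochondria, had its start at 115251493 on chromosome 10 in 115250001 to 115254999, joined over 55 kb to 115305001 to 115309999 upstream, with an n of 14 (rank 867 of 986). Neither distant anchor held a protein-coding gene end.

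Tbc1d22a, at chr15:86214411-86498503, was joined from its upstream start in 86210001 to 86219999 over 50 kb to 86160001 to 86169999. Tbc1d7, the gene of the third subunit of the TSC complex that restrains mTORC1, was joined from its start in 43170001 to 43179999 on chromosome 13 over 140 kb to 43310001 to 43319999. In these 4 genes the loop ran from the start away from the gene body, to an anchor with no gene end.

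In Tbc1d4 and Tbc1d12 the loop from the start ran over the gene instead. Tbc1d4 encodes AS160, the insulin-regulated GTPase-activating protein that turns Rabs off and holds back the glucose transporter GLUT4. Its start at 101609191 on chromosome 14, in 101600001 to 101624999, was joined over 100 kb to 101500001 to 101524999 inside the gene, with an n of 93 (rank 333 of 2375). Tbc1d12 encodes a relative of Tbc1d14 that binds Rab11. Its start in 38825001 to 38849999 on chromosome 19 was joined over 100 kb to 38925001 to 38949999, just past the other end of the gene and at the start of Hells, a chromatin remodelling helicase gene.

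In Tbc1d10a, Tbc1d13 and Tbc1d24 the anchored end was the one away from the start. Tbc1d10a, the gene of EPI64, a GTPase-activating protein for Rabs, shared the anchor 4210001 to 4219999 on chromosome 11 with Castor1, an arginine sensor gene of the mTORC1 pathway. It was the only member with 2 loops in 1 replicate, of 50 kb to 4160001 to 4169999, at the starts of Sf3a1, a splicing factor gene, and Ccdc157, and of 80 kb to 4130001 to 4139999, at an end of Rnf215. Tbc1d13, the gene of a GTPase-activating protein for Rab35, shared the anchor 30150001 to 30174999 on chromosome 2 with Endog and Spout1. It was joined over 100 kb to Lrrc8a, a volume-regulated anion channel gene, and Phyhd1. Tbc1d24, a synaptic vesicle gene mutated in human epilepsies, had a loop of 60 kb from 24170001 to 24179999 across the gene to 24230001 to 24239999 on chromosome 17.

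Tbc1d30, the gene of a GTPase-activating protein for Rab8 at cilia in human cells, had its left end at 121263819 on chromosome 10 in 121250001 to 121274999, joined over 325 kb to 120925001 to 120949999. No start with strand was available for it.

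**Figure D3:**
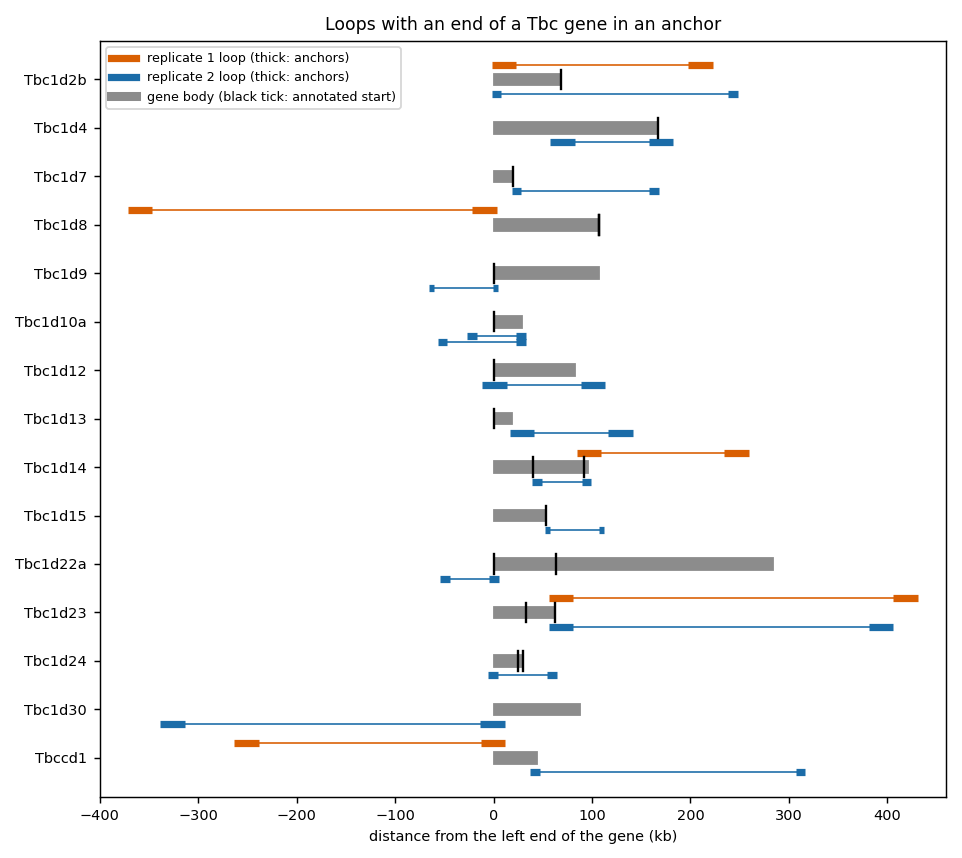
Loops with an end of a Tbc gene in an anchor, for the 15 such genes, in kb from the left end of each gene by chromosome position. Replicate 1 loops are orange and drawn above the gene, replicate 2 loops blue and below. Tbc1d2b, Tbc1d14, Tbc1d23 and Tbccd1 have loops in both replicates, and the loops of Tbc1d14 and Tbccd1 run in opposite directions in each.

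Loops with a Tbc gene end in an anchor had a lower median span than their background in replicate 2 and a higher one in replicate 1. The 15 loops of replicate 2 had a median span of 100 kb and ran from 50 to 325 kb, where all 3131 replicate 2 loops with a protein-coding gene end had a median of 150 kb. The 5 loops of replicate 1 had a median of 250 kb and ran from 150 to 350 kb, where all 844 had 150 kb. The medians thus lay on opposite sides of their own backgrounds, on 15 and 5 loops. All 5 replicate 1 loops were on 25 kb anchors, as were 733 of those 844. Of all 20 loops, 10 were on 25 kb anchors, 8 on 10 kb and 2 on 5 kb anchors. Of the 3975 loops with a protein-coding gene end, 2338, 1277 and 360 were. The longest spanned 350 kb, and the upper quartile was 255 kb, against 270 kb for all loops with a gene end. In replicate 1, 2 of 5 loops were shared (40%), where 79.9% of loops with a gene end were. In replicate 2 it was 0 of 15, where 14.2% were. With midpoints within 25 kb it was 4 of 5 in replicate 1 (80%, against 87.7%) and 1 of 15 in replicate 2 (6.67%, against 16.2%). Matched within 25 kb, replicate 2 loops of 325 kb (Tbc1d8), 125 kb (Tbc1d14) and 240 kb (Tbccd1) missed the gene end. They are thus not in the replicate 2 median.

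Most loops led away from the gene, as they did elsewhere. The partner anchor lay beyond the anchored end in 12 of 20 cases (60%, against 60.7% for other genes), across the gene in 6 (30%, against 33.2%) and inside the gene in 2 (10%, against 4.27%), those of Tbc1d4 and Tbc1d14. Protein-coding gene ends stood at both anchors in 7 of 20 loops (35%), and in 28.9% of all loops with a gene end. The partners named above are the genes of all 7.

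Starts of Tbc genes were at anchors about as often, relative to other genes, as their ends. Of the 30 members with annotated starts 8 had one in an anchor (26.7%), against 14.9% of all 17274 protein-coding genes with annotated starts. Other genes of like density gave 15.7%. Where a member with known starts was at an anchor, the anchor held a start in 10 of 17 cases (58.8%, against 58.7% for other genes).

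Anchored Tbc starts were too few, at 9, to place their shares of the motifs searched, on both strands of the 250 bases before each start. Of 9 Tbc starts in an anchor 1 held CCGGAA, the core letters of ETS factor sites, or 11.1%, against 15.1% of all 21045 starts. That start was the upstream one of Tbc1d22a, with matches in 2 separate stretches, 1 of them read on both strands. CCGGAA was in 20.5% of the anchored starts of other genes and in 8 of the 30 Tbc starts not in an anchor (26.7%). Of the anchored Tbc starts CCAAT was in 3 (33.3%, against 35.6% of all starts), AGGGGGC, core letters of the CTCF motif, in 1, that of Tbc1d4 (11.1%, against 11.7%), and AAGATGGC, of YY1, in 0 (against 1.51%). In anchored starts of other genes these 3 motifs were in 35.5%, 15.7% and 1.96%. GCGCATGC, of NRF1, was in 1 anchored Tbc start, that of Tbc1d15 (11.1%, against 2.95% of all starts and 3.32% of anchored starts of other genes). In all 39 Tbc starts it was in 6 (15.4%), the others being those of Tbc1d5, Tbc1d20, Tbc1d24, Tbc1d25 and Tbca. Each motif was counted on its own, so overlapping matches of different motifs each count. A match is a run of letters and not a bound site. The median promoter of an anchored Tbc start had 18 CpG dinucleotides, against 15 for other Tbc starts, 14 for anchored starts of other genes and 10 for all starts. Tbc1d9 and the internal start of Tbc1d14, with 4 and 3, were the poorest of the anchored ones.

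The other 23 members had no end in an anchor. Nearest to one were Tbce (2.1 kb), Tbc1d2 (4.4 kb), Tbc1d9b (6.1 kb), Tbc1d10b (7.5 kb) and Tbc1d8b (10.0 kb). Tbce and Tbc1d9b were nearest to a replicate 1 anchor, and Tbc1d2 and Tbc1d10b to a replicate 2 anchor. The other 18 had their nearer end more than 10 kb away, up to 159.7 kb, in the nearer replicate, for Tbc1d21, a gene known for its role in sperm. Among them were Tbc1d1, the relative of Tbc1d4 (28.5 kb), Tbc1d5, which binds the retromer complex (11.2 kb), Tbc1d20, the gene of a GTPase-activating protein for Rab1 and Rab18 (68.8 kb), and Tbc1d10c, the gene of a lymphocyte calcineurin inhibitor (63.8 kb). Of the tubulin cofactor genes, Tbcd lay 17.2 kb, Tbca 82.1 kb, Tbcb 99.1 kb, Tbcc 132.5 kb and Tbcel 137.3 kb from an anchor. All these distances run from the gene ends. An anchor lay inside the body, between the ends, of Tbck, Tbc1d1, Tbc1d2, Tbc1d5, Tbc1d16, Tbc1d19, Tbcd and Tbce. By gene body 30.0% of all genes were at an anchor.

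**Figure D4:**
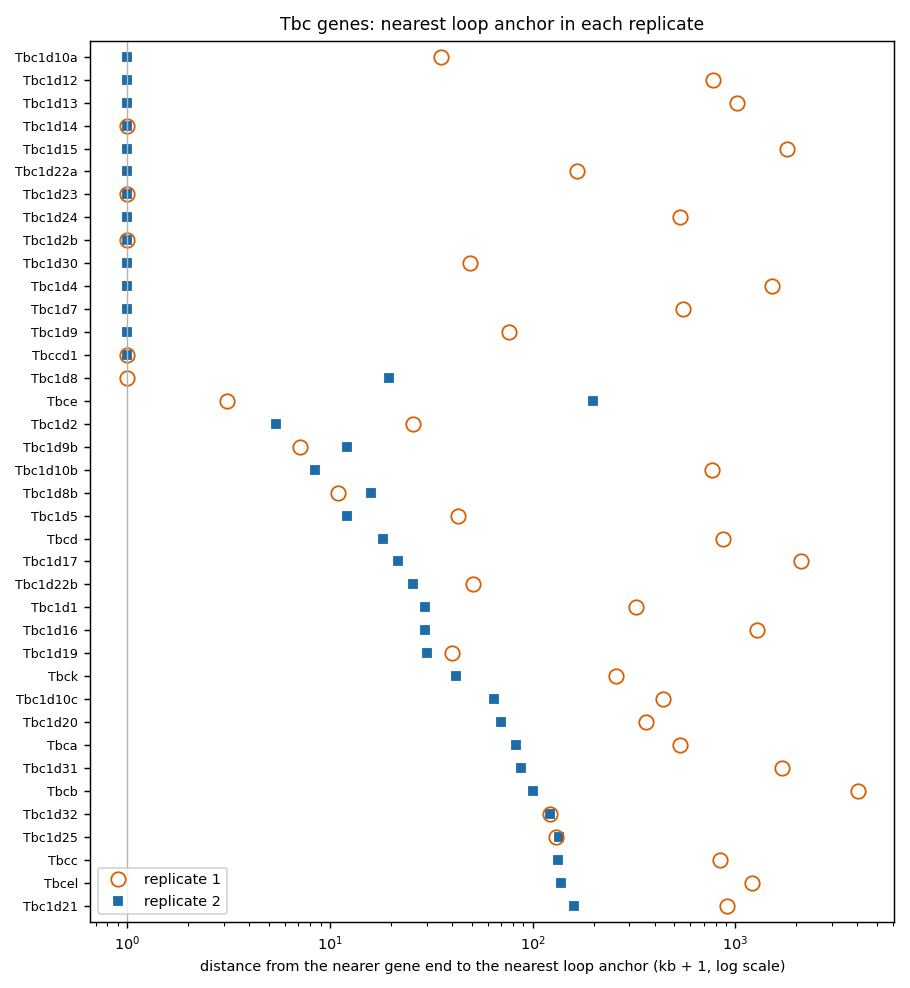
Distance from the nearer end of each of the 38 Tbc genes to the nearest loop anchor, in kb plus 1 on a log scale, for replicate 1 (open circles) and replicate 2 (squares). The 15 members at an anchor sit at the left line, 4 of them in both replicates, and by the nearer of the replicates the farthest other member is Tbc1d21 at 159.7 kb; in replicate 1 alone it is Tbcb at 4017.8 kb and in replicate 2 alone Tbce at 197.9 kb.

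Whole Tbc genes inside loops or domains were few in number. The shares here and for domains below stand against all genes, with no match on length or density. Tbc genes are longer than other genes (median 57.8 kb, against 17.3 kb), which bears on both. Of the 38, 6 lay between the anchors of a loop (15.8%, against 27.0% of all genes), namely Tbc1d8, Tbc1d9, Tbc1d13, Tbc1d14, Tbc1d19 and Tbca. Tbca, of which no end was anchored, lay inside a replicate 2 loop of 375 kb with an end of Ap3b1, an adaptor complex gene, at its left anchor. Tbc1d19 lay inside one of 775 kb that ended at Stim2, a calcium sensor gene.

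Domains held 2 members in full (5.26%, against 3.98% of all genes), and 4 overlapped one (10.5%, against 5.51%), all in replicate 2. Tbce lay in a domain of 335 kb on chromosome 13, from 13865001 to 14200000, with B3galnt2, Ggps1 and Arid4b. Tbc1d9b lay in one of 405 kb on chromosome 11, from 49980001 to 50385000, with 8 other protein-coding genes, among them Sqstm1, the autophagy receptor gene, and Canx, the calnexin gene. Tbc1d5, the longest member at 448 kb, crossed the right edge of a 525 kb domain on chromosome 17 that ended 66.9 kb into the gene from its left end. The fourth was Tbc1d23, above.

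Genes of the same domain family without the symbol, and genes that work with these proteins, gave a mixed picture. Their counts at shared loops, 1 of 9, 3 of 35 and 5 of 30, stand against 5.83% of all genes, with no match on density. Of 9 genes of other TBC-domain GTPase-activating proteins for Rabs without the Tbc symbol, 5 had an end in an anchor (55.6%, against 24.5% of genes of like density): Evi5, Evi5l, Rabgap1l, Sgsm1 and Usp6nl. Evi5, a cell cycle regulator gene whose product binds Rab11, was the one at a shared loop, of 100 kb with identical anchors in both replicates, from 107875001 to 107899999 to 107775001 to 107799999 on chromosome 5. Of 35 genes of Rab GTPases themselves 7 did (20%, against 22.7%). Those at shared loops were Rab7, the late endosome Rab, with a 90 kb loop in replicate 2, Rab27a, the Rab of secretory granules, joined over 125 kb to Pygo1 and Dnaaf4 in both replicates, and Rab32, with a 150 kb loop in both. Of 30 genes of tubulins and their folding partners 8 did (26.7%, against 20%), and 5 were at shared loops. Among these were Cct2 and Cct4, genes of chaperonin subunits, with loops of 150 kb in both replicates for Cct2 and of 270 and 280 kb for Cct4, and Stmn1, the gene of the tubulin-binding protein stathmin, with loops of 80 kb in replicate 1 and 60 kb in replicate 2. The others were the prefoldin subunit genes Pfdn2, with a 125 kb loop in both replicates, and Pfdn1, joined over 100 kb to Hbegf in replicate 1.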

How the data were processed

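Hi-C libraries of 2 replicates were prepared with the Arima kit, per the labels' protocols. HiC-Pro 2.11.1 and mm10 are named in the submitters' processing notes; which programs called loops and domains is not given in the sources used here. The authors deposited 2 loop lists and 1 domain list per replicate, called on each replicate alone. Loop coordinates are printed as deposited; domain starts were moved by 1 base to count from 1.

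RefSeq genes of GRCm38.p6 were used, without 345 genes (110 protein-coding) on scaffolds. Starts, strands and promoter sequences came from the RefSeq promoter table of the same build; 8 members had no entry. Density is the number of other protein-coding genes whose midpoints lie within 500 kb, in 10 bands. The matched share averages the share of other genes in each member's band. Python 3.11.15 and pandas 2.3.3 were used, and the scripts were checked on placed loops. The members, lists and alternatives were chosen with earlier results of these data known. Named genes are all anchored members, the 5 nearest others, those at domains, and list genes at shared loops; other unanchored members, and list genes away from shared loops, were named after their values were seen. No p-values are given, because the members were chosen on the readout.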

Additional observations from a re-analysis of the deposited data

How the results depend on the processing

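No paired analysis was possible because there is 1 group and no contrast. The count of 15 members at an anchor was 17 and 20 with gene ends within 5 and 10 kb, where 30.6 and 36.5% of all genes were counted, and 15 with 1 member per 500 kb. It moved to 9 under the high setting, 23 with gene bodies (30.0% of all genes) and 8 with annotated starts alone, and leaving out 1 replicate gave 5 to 14, the 5 without replicate 2. The 2 members at shared loops (5.26%, against 5.83% of all genes) became 1 with midpoints within 10 kb (against 4.16%), 4 within 25 kb (10.5%, against 6.52%, so that the order turned; Tbc1d8 and Tbc1d14 in addition), 1 with overlapping anchors (Tbccd1, against 4.59%) and 0 under the high setting (against 0.804%). The ratio to density-matched genes, 1.68, ranged from 1.56 to 1.72 over the other density windows and matches planned, with 1.61 when olfactory and vomeronasal receptor genes were left out, 1.78 to 1.88 without 1 replicate and 2.43 under the high setting. Of the alternatives added after seeing the data, length alone gave 1.48 and the high setting with density and length 2.28, and it reversed on shared loops alone, to 0.864, or 0.542 with overlapping anchors, on 2 and 1 members, but was 1.55 with midpoints within 25 kb, on 4; the cause was not tested. The 2 members inside a domain became 4 with any overlap, and 2 to 0 when a replicate was left out, 0 without replicate 2. The median span of 120 kb was 62.5 kb under the high setting, which for Tbc genes holds the same loops as those on 5 and 10 kb anchors. It was 100 to 250 kb without 1 replicate. The unknown depth limits any reading of a missing loop, above all in replicate 1.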

Other observations

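Loops between annotated starts of a single gene, as at Tbc1d14, were listed for 7 other protein-coding genes, chosen after their values were seen. Runx1, which encodes a transcription factor of blood stem cells and is known to use a distal and a proximal promoter, had a loop of 130 kb between its starts at 92826074 and 92697329 on chromosome 16, in replicate 2. Mef2c, a MADS-box transcription factor gene, had one of 50 kb, and Sertad2 one of 90 kb, both in replicate 2. Snx29, a sorting nexin gene, had one of 100 kb, and Eml1, a microtubule-associated protein gene, and Zfp800 had loops of 125 kb, all in replicate 2. Pde4dip, the gene of the centrosome and Golgi protein myomegalin, was the one with such a loop in both replicates, of 125 kb in replicate 1 and 120 kb in replicate 2. Tbc1d14 and Mef2c, at 50 kb, had the shortest of these loops.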
